A study of Mus musculus with 2 samples.

Results

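The genes described here were 8 of the 32285 genes listed for both libraries. They were the glucocorticoid receptor Nr3c1, 5 genes known to be induced through it (Fkbp5, Tsc22d3, Zbtb16, Sgk1 and Pdk4) and the metallothioneins Mt1 and Mt2. They were matched by symbol, each symbol occurred once, and they were chosen by the values they had shown in these same libraries, so their ratios are a description and carry no test. Aging C57BL/6 mice had received the drug Maraviroc (MVC) or its vehicle DMSO by intraperitoneal injection. Mononuclear cells of their limb muscle were profiled by droplet single-cell RNA-seq, with 1 library per group. The number of mice behind each library was not given in the sources used here. Red blood cells had been lysed and dead cells sorted out beforehand. With 1 library per group, no difference below could be set against the spread between mice, and MVC and the library cannot be told apart.

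Glucocorticoids are adrenal hormones that enter the cell and bind Nr3c1, which is held in the cytoplasm by heat shock proteins. The bound receptor moves to the nucleus and raises transcription of its target genes, and in muscle this is known for a shift from glucose to fat use and for protein breakdown. Metallothioneins are small cysteine-rich proteins that bind zinc and copper, and their genes are induced by metals through the factor Mtf1 and by glucocorticoids.

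There were 5437 kept cells in DMSO and 5454 in MVC, and their median depth was 5802 and 5195 UMIs (unique molecular identifiers, 1 per captured RNA molecule), respectively. The kept cells of both libraries had 8 barcodes in common. Clustering without the 113 listed genes gave 27 clusters, which were named "X-like" from marker genes. The 8 classes with 100 or more cells per library were MuSC-like (satellite cells, 145 DMSO and 255 MVC cells), FAP-like (fibro-adipogenic progenitors, 1172 and 1423), EC-like (blood endothelial cells, 2205 and 1761), SMC-like (smooth muscle, 210 and 172), pericyte-like (249 and 238), tenocyte-like (466 and 531), macrophage-like (152 and 210) and B cell-like (206 and 107). The largest FAP-like and EC-like clusters were the same in both libraries. The SMC-like class pooled cluster 17 (201 cells, led by Acta2 and Myh11) and cluster 19 (181 cells, led by Olfr1033 and Gm13889), and its values average both. No smooth muscle marker was among the leading genes of cluster 19, though 5 were raised in it. Levels are UMIs per 1000000 UMIs of the class and library (CPM), and a ratio is the MVC level over the DMSO level. All intervals are 95% and cover counting error only.

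Mt1 and Mt2 lie next to each other on chromosome 8 of the mouse (GRCm38, Mt2 at 94172664 to 94173568 and Mt1 at 94179082 to 94180327, both on the plus strand). Sgk1 lies on the plus strand of chromosome 10 (21882184 to 21999903). The other mapped genes lie on the minus strand, Pdk4 on chromosome 6 (5483351 to 5496309), Fkbp5 on chromosome 17 (28399094 to 28517527), Tsc22d3 on chromosome X (140539528 to 140600659) and Zbtb16 on chromosome 9 (48654297 to 48836222). All are protein-coding genes in the GENCODE annotation. Between 0% and 1.75% of the 31-base words of the members' transcripts, Nr3c1 included, also occurred in transcripts of another gene, so few reads could be split with a copy.

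The sequences before the start sites are shown for the metallothioneins, which moved together in most classes, and for the Sgk1 start that carried a full receptor motif. RefSeq promoters (GRCm38.p6) were given for 6 of the 8 members, with 13 start sites in all, and the 250 bases before each start were searched on both strands. The glucocorticoid response element was searched as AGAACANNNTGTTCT, a pair of inverted half-sites AGAACA, and the metal response element core as TGCACNC or TGCGCNC. The runs below are 240 bases each on the plus strand, from chr8:94172368-94172607 (Mt2), chr8:94178839-94179078 (Mt1) and chr10:21993640-21993879 (Sgk1), with the metal core in capitals in Mt1 and Mt2 and the receptor motif in capitals in Sgk1.
Mt2: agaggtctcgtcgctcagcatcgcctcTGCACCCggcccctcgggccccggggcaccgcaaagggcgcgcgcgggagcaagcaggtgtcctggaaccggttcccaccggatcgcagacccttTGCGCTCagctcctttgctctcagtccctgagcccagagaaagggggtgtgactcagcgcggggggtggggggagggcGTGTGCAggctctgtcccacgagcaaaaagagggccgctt
Mt1: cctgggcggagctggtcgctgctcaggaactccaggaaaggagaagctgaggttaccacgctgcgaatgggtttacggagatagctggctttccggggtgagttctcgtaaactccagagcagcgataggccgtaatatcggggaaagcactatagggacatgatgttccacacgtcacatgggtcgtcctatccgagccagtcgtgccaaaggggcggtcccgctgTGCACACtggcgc
Sgk1: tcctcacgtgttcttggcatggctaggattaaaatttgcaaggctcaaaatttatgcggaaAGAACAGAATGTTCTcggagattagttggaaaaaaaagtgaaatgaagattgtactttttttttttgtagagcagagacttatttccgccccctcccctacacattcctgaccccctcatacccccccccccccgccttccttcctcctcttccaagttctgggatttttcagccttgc

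The full receptor motif was found at 1 of the 6 Sgk1 starts and at none of the other members' starts, and in 3 of the 32851 promoters searched (0.00913%). The half-site alone was present in 16.1% of all promoters and, among the members, at 3 of the 6 Sgk1 starts and 1 of the 3 Tsc22d3 starts. The metal core had 3 matches before the Mt2 start and 1 before the Mt1 start, where 21.4% of all promoters held at least 1 and 1.26% at least 3. GENCODE places further Mt1 and Mt2 starts downstream of these windows, which were not searched. Such matches are letters in a window and were not set against binding data.

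Nr3c1 was detected in each of the 12 classes that held 50 or more cells per library. It stood highest in T/NK-like cells, at 701 CPM in DMSO and 916 CPM in MVC, followed by B cell-like cells (397 and 430.5 CPM) and pericyte-like cells (364 and 403 CPM). The B cell and pericyte intervals overlapped in both libraries. At the other end were Schwann-like cells in DMSO (124 CPM) and perineurial-like cells in MVC (149 CPM). Among FAP-like cells Nr3c1 was 155 CPM in DMSO and 211 CPM in MVC, a ratio of 1.37 (1.29 to 1.45). Among EC-like cells it was 224 and 271 CPM (ratio 1.21, 1.14 to 1.28), and among MuSC-like cells 135 and 166 CPM (ratio 1.24, 1.01 to 1.51). Tenocyte-like and macrophage-like cells had ratios of 0.940 and 0.942 with intervals that held 1. The receptor therefore passed 1.5-fold in none of the 8 classes, and it was the member with the fewest ratios below 1 (2 of 8 classes). In Schwann-like cells, with 99 DMSO and 127 MVC cells, it was 124 and 230 CPM (ratio 1.84, 1.39 to 2.47). In SMC-like cells, where 22.5% of cells were called doublets, its ratio was 1.46 with them and 1.71 without them.

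**Figure D1:**
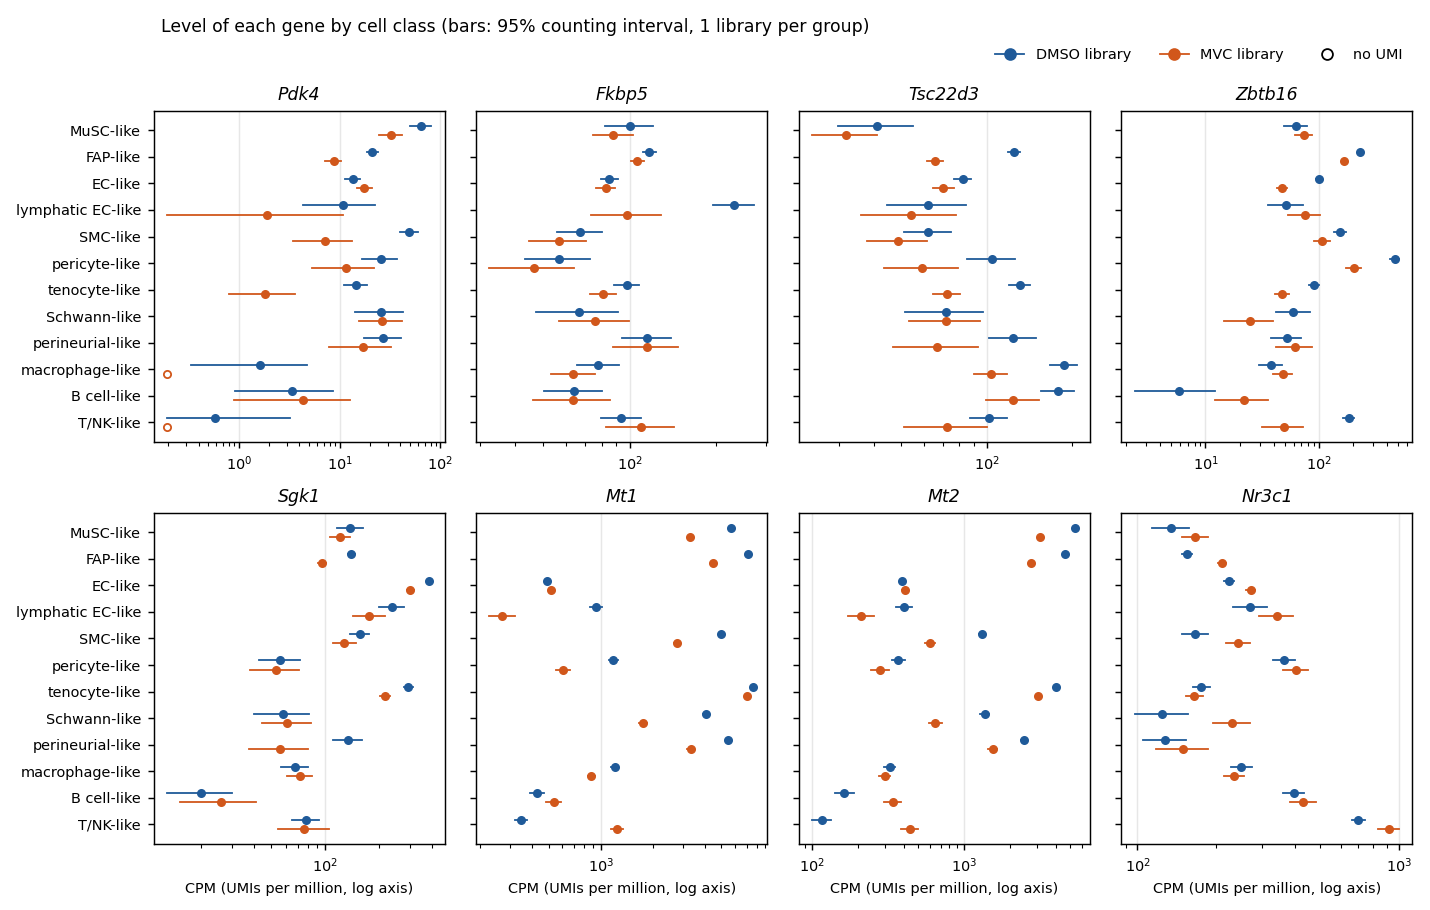
CPM of each member (log axis, 1 panel per gene) in the 12 classes with 50 or more cells per library, with DMSO in blue, MVC in orange and bars for the 95% counting interval; open circles mark classes with no UMI. Mt1 and Mt2 stood highest in stromal, tendon and satellite cells in DMSO, Nr3c1 in T/NK-like cells, Sgk1 in EC-like cells and Zbtb16 in pericyte-like cells.

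Over all kept cells, 2 of the 8 members were lower by at least 1.5-fold in MVC and none was higher, where 4.41% of 14977 genes were lower and 6.24% higher by that much. The 2 were Pdk4 and Tsc22d3. This sum also moves with the share of each cell type, so the values below are given within classes, among genes with at least 100 UMIs over both libraries in the class. FAP-like cells had the most members past 1.5-fold of the 8 classes: Pdk4, Tsc22d3, Mt1 and Mt2, 4 of 8, were lower and none was higher (2.26% and 9.28% of all genes). The median of all genes in FAP-like cells was shifted by 0.13 on the log2 scale toward MVC, whereas the members' median log2 ratio was -0.60, so that relative to all genes the members stood lower still. Scaling by the median ratio of all genes instead gave 3.61% lower and 5.33% higher genes in FAP-like cells, 5.91% and 8.62% in MuSC-like cells and 5.23% and 4.93% over all cells.

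In MuSC-like cells 3 of 8 members were lower (Pdk4, Mt1 and Mt2) and none higher, against 7.50% and 6.96% of all genes. In EC-like cells only Zbtb16 was lower, 1 of 8, with none higher (2.94% and 6.68%). In SMC-like cells 2 of 7 tested members were lower, Mt1 and Mt2, and none higher (4.29% and 9.19%). In pericyte-like cells Tsc22d3, Zbtb16 and Mt1 were lower, 3 of 6 tested, and none higher (6.29% and 6.97%). In tenocyte-like cells Tsc22d3 and Zbtb16 were lower, 2 of 7 tested, and none higher (4.06% and 6.74%). Macrophage-like cells had only Tsc22d3 lower, 1 of 7 tested, with none higher (4.87% and 6.97%), and B cell-like cells had none lower and Mt2 higher, of 5 tested (6.92% and 9.15%). These shares of all genes are given as background only, since the members were picked from the same contrast.

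**Figure D2:**
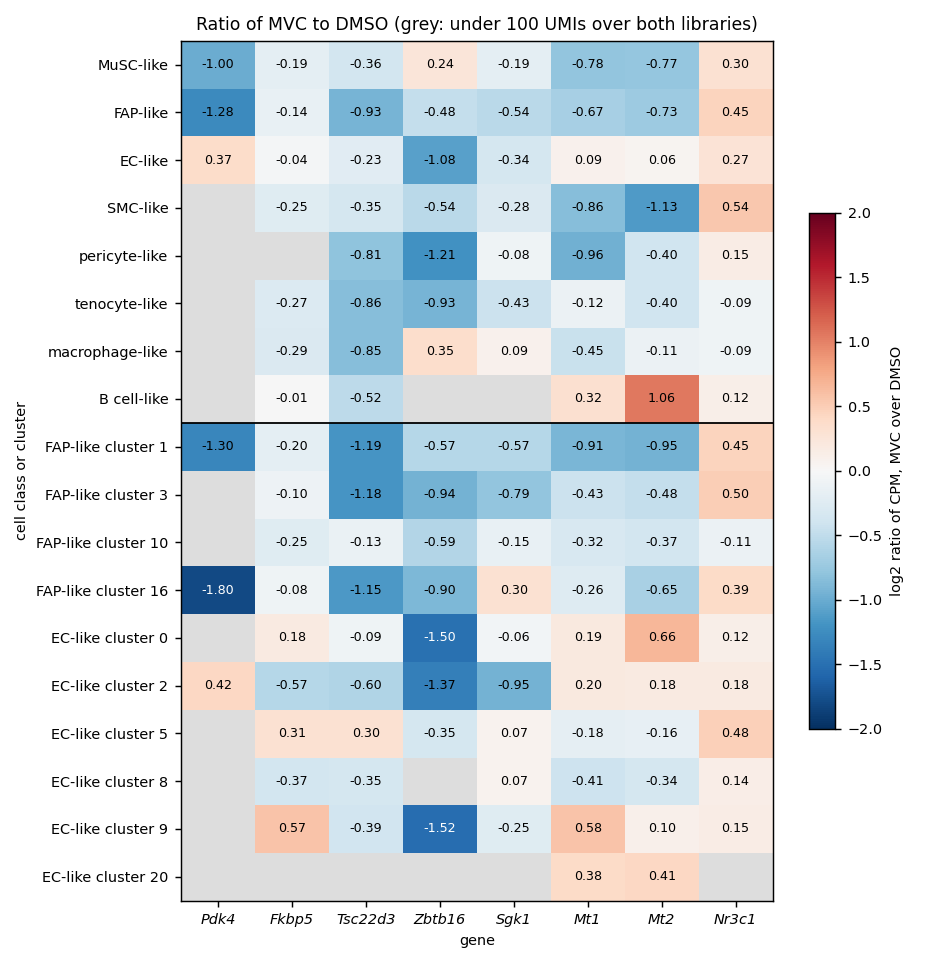
Log2 ratio of CPM, MVC over DMSO, for the members (columns) in the 8 classes (above the line) and in the FAP-like and EC-like clusters (below it), blue for lower and red for higher in MVC, grey for under 100 UMIs over both libraries. Tsc22d3 is below 0 in all 8 classes, and Mt1 and Mt2 are below 0 in 6 of 8.

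Fkbp5 encodes a co-chaperone of Hsp90 that lowers the affinity of the receptor for hormone and is itself induced by it. Its level over all cells was 97.5 CPM in DMSO and 89.8 CPM in MVC (ratio 0.921, 0.879 to 0.966). It was 117 and 106 CPM in FAP-like cells (ratio 0.907), 85.0 and 82.7 CPM in EC-like cells (ratio 0.973, 0.877 to 1.08) and 100.0 and 87.8 CPM in MuSC-like cells (ratio 0.878, 0.684 to 1.13). All 8 ratios were below 1, and none of the 7 with at least 100 UMIs passed 1.5-fold. Lymphatic EC-like cells, with 75 DMSO and 79 MVC cells, stood apart with 231 and 98.3 CPM (ratio 0.425, 0.303 to 0.587). At 2000 UMIs per cell Fkbp5 was seen in 18.5% of FAP-like cells in DMSO and 16.2% in MVC.

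Tsc22d3 encodes GILZ, a leucine zipper protein that carries part of the anti-inflammatory action of glucocorticoids. Of the 12 classes, macrophage-like and B cell-like cells had the highest levels in both libraries. In macrophage-like cells it was 187 CPM in DMSO and 104 CPM in MVC (ratio 0.555, 0.466 to 0.659). In FAP-like cells it was 125 and 65.6 CPM (ratio 0.524, 0.482 to 0.569), and in tenocyte-like cells 131 and 72.2 CPM (ratio 0.553, 0.479 to 0.636). The DMSO level was the higher in all 8 classes, and in 4 of them by at least 1.5-fold. B cell-like cells had 179 and 124 CPM (ratio 0.696, 0.535 to 0.898), and EC-like cells 82.2 and 70.2 CPM (ratio 0.855, 0.766 to 0.953). In pericyte-like cells the ratio was 0.569 from summed UMIs and 0.726 as the mean of each cell's own CPM, which is not past 1.5-fold.

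The FAP-like clusters differed in Tsc22d3 level. Cluster 1 (led by Cxcl14 and Smoc2) had 191 CPM in DMSO and 84.0 CPM in MVC, a ratio of 0.439. Cluster 3 (C7 and Gdf10) had 102 and 45.3 CPM (ratio 0.442), and cluster 16 (Pi16) had 201 and 90.7 CPM (ratio 0.452). Cluster 10 (Sdk1 and Dmkn), where the gene was low, had 34.5 and 31.5 CPM with a ratio of 0.911 (0.678 to 1.22), an interval that does not reach those of the other clusters. Without the 3 richest cells of each library the cluster 10 ratio was 0.755 (0.536 to 1.06). That interval overlapped those of cluster 3 (0.355 to 0.5385) and cluster 16 (0.311 to 0.541), taken the same way. Of FAP-like cells thinned to 2000 UMIs, 19.8% in DMSO and 11.3% in MVC had a Tsc22d3 UMI.

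Zbtb16 encodes the zinc finger factor PLZF and is known for a strong response to glucocorticoids in stromal cells. It stood highest in pericyte-like cells, at 467 CPM in DMSO and 202 CPM in MVC (ratio 0.433, 0.359 to 0.519). FAP-like cells followed with 232 and 166 CPM (ratio 0.717, 0.678 to 0.758), short of 1.5-fold. EC-like cells had 101 and 47.7 CPM (ratio 0.472, 0.418 to 0.532), and tenocyte-like cells 90.3 and 47.6 CPM (ratio 0.527, 0.442 to 0.626). The opposite held in MuSC-like cells (62.8 and 74.1 CPM, ratio 1.18, 0.877 to 1.60) and in macrophage-like cells (37.8 and 48.1 CPM, ratio 1.27, 0.928 to 1.75), where both intervals held 1. B cell-like cells gave the low end, with 7 DMSO and 15 MVC UMIs in all.

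The share of cells with a Zbtb16 UMI, at 2000 UMIs per cell, moved with these levels. It was 48.2% in DMSO and 30.8% in MVC among pericyte-like cells, and 17.6% and 8.86% among EC-like cells. Among B cell-like cells, taken as the level of free RNA, it was 0 of 203 cells in DMSO, which allows a share of up to 1.48% when 3 counts are taken as the limit, and 2.17% in MVC. Median depth before thinning was 3801 and 2468 UMIs for pericyte-like cells and 5088 and 5375 UMIs for B cell-like cells, and 25 DMSO and 95 MVC pericyte-like cells were too shallow to enter. Before thinning the shares were 65.5% and 39.9% among pericyte-like cells and 2.43% and 7.48% among B cell-like cells.

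Within the EC-like class Zbtb16 was lower by at least 1.5-fold in clusters 0, 2 and 9 and not in cluster 5, and cluster 8 had under 100 UMIs. Cluster 0 (Slc1a1 and Cldn5) had 103 CPM in DMSO and 36.4 CPM in MVC (ratio 0.354, 0.272 to 0.454). Cluster 2 (Depp1, Rassf9 and Timp4) had 234 and 90.7 CPM (ratio 0.388, 0.319 to 0.471), and cluster 9 (Trim69 and Patl2) 126 and 43.7 CPM (ratio 0.348, 0.230 to 0.511). Cluster 5, led by the arterial genes Gja5 and Bmx, had 57.6 and 45.3 CPM (ratio 0.787, 0.573 to 1.08), and cluster 8, with the venular genes Selp and Ackr1, 21.9 and 21.3 CPM (ratio 0.974, 0.599 to 1.57). T/NK-like cells had 315 UMIs in DMSO and 25 in MVC, but the 3 richest cells held 41.0% and 80.0% of them.

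Sgk1 encodes a kinase that acts on ion channels and on survival, and it is induced by glucocorticoids, mineralocorticoids and serum. It stood highest in EC-like cells (382 CPM in DMSO and 301 CPM in MVC, ratio 0.787, 0.748 to 0.829) and next in tenocyte-like cells (293 and 217 CPM, ratio 0.742, 0.680 to 0.808). FAP-like cells had 140.4 and 96.3 CPM (ratio 0.686, 0.638 to 0.737). No class of the 8 passed 1.5-fold, and 6 ratios of 8 were below 1. The order of the 12 classes was the most alike between the libraries for this gene, with a Spearman rho of 0.951 over classes, which share the libraries and their depth.

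The EC-like value of Sgk1 averaged unlike clusters. In cluster 2 it was 571 CPM in DMSO and 296 CPM in MVC (ratio 0.518, 0.463 to 0.579), with the gene seen in 54.2% and 33.7% of cells at 2000 UMIs. In cluster 0 it was 542 and 521 CPM (ratio 0.962, 0.892 to 1.04), with 50.9% and 50.4% of cells. Clusters 5 and 8 had ratios of 1.05 each, with intervals that held 1, and cluster 9 had 402 and 338 CPM (ratio 0.842, 0.721 to 0.980). Cluster 2 was also the EC-like cluster with the lowest Tsc22d3 ratio (0.659, 0.554 to 0.782) and the lowest Fkbp5 ratio among clusters 0, 2, 5, 8 and 9 (0.673, 0.490 to 0.922).

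Pdk4 encodes a kinase that switches off pyruvate dehydrogenase and so spares glucose, and it responds to fasting as well as to glucocorticoids. It was a low gene, with 780 UMIs in DMSO (20.1 CPM) and 388 in MVC (10.9 CPM) over all cells, a ratio of 0.543 (0.479 to 0.614). In MuSC-like cells it was 64.6 and 32.4 CPM (ratio 0.501, 0.349 to 0.718), and in FAP-like cells 21.2 and 8.72 CPM (ratio 0.412, 0.329 to 0.512). EC-like cells lay the other way, at 13.6 and 17.6 CPM (ratio 1.30, 1.02 to 1.65). Without the 3 richest cells of each library this ratio was 1.13, and with the cluster shares held equal in both libraries it was 1.15. Its EC-like clusters were split, with 0.575 in cluster 0, 0.568 in cluster 5, 1.34 in cluster 2, 2.12 in cluster 8 and 3.75 (1.83 to 8.01) in cluster 9. Of these only cluster 2 reached 100 UMIs over both libraries, and only the interval of cluster 9, from 13 and 24 UMIs, did not hold 1. This rested on few cells. Without the 3 richest cells of each library the ratio was 0.444 (0.188 to 0.943) in cluster 0 and 0.419 (0.179 to 0.909) in cluster 5. Cluster 9 then had 2.91 (1.001 to 9.02), from 7 and 10 UMIs, and the intervals of clusters 2 (1.25) and 8 (1.93) held 1.

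Pdk4 had under 100 UMIs over both libraries in the other stromal classes, where the DMSO counts were the larger. Tenocyte-like cells had 61 UMIs in DMSO and 8 in MVC (ratio 0.126, 0.0520 to 0.264), and pericyte-like cells 27 and 9. SMC-like cells had 87 and 10 UMIs, and 1 DMSO cell alone held 45 of the 87. FAP-like cells in DMSO also had 1 cell with 45 Pdk4 UMIs, of 271. Among the 4 FAP-like clusters, the ratio was 0.405 in cluster 1 (0.290 to 0.560) and 0.244 in cluster 3 (0.127 to 0.437), the latter from 69 and 14 UMIs. It was 0.287 in cluster 16, where 3 cells held 66.3% of the DMSO and 48.1% of the MVC UMIs, and 0.440 (0.214 to 0.865) without them. Cluster 10 lay the other way with 14 and 17 UMIs, a ratio of 1.53 (0.711 to 3.36). Without the 3 richest cells of each library that ratio was 1.09 (0.303 to 3.80), from 7 and 6 UMIs. In macrophage-like cells 3 UMIs were found in DMSO and none in MVC, which is at the floor of 3 counts and gives no fold.

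Pdk4 is abundant in muscle fibres, so fibre RNA was measured beside it. The 13 DMSO and 25 MVC myofibre-like cells had 1121 and 73.5 CPM of Pdk4, from 69 and 7 UMIs. The summed level of the 5 fibre markers (Acta1, Ckm, Tnnt3, Myh4 and Mylpf) was 19.0 CPM in DMSO and 24.7 CPM in MVC among FAP-like cells, 22.4 and 42.2 CPM among EC-like cells, and 431 and 76.8 CPM among MuSC-like cells. In FAP-like cells with no UMI of any of them, 1016 in DMSO and 1168 in MVC, Pdk4 was 17.5 and 9.13 CPM. In MuSC-like cells with none, 139 and 211 cells, it was 56.4 and 33.8 CPM. In MuSC-like cells the fibre markers and Pdk4 were both lower in MVC. Cells with no marker UMI can still hold fibre RNA, whose part was not tested.

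Mt1 and Mt2 were the most abundant members. Mt1 stood highest in tenocyte-like cells, at 7637 CPM in DMSO and 7037 CPM in MVC, and Mt2 in MuSC-like cells, at 5351 and 3141 CPM. Lowest among the 12 classes in DMSO were T/NK-like cells for both genes, with 345 CPM of Mt1 and 115 CPM of Mt2. Across the 12 classes the levels of both genes went together, with a Pearson r of 0.935 on log2(CPM + 10) averaged over the libraries. The classes share libraries and depth, so this is a description.

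The metallothioneins were lower in MVC in most stromal and myogenic cells. In FAP-like cells Mt1 was 7099 CPM in DMSO and 4475 CPM in MVC (ratio 0.631, 0.624 to 0.637), and Mt2 was 4583 and 2768 CPM (ratio 0.604, 0.596 to 0.612). In MuSC-like cells Mt1 was 5681 and 3302 CPM (ratio 0.581, 0.561 to 0.602) with an Mt2 ratio of 0.587 (0.566 to 0.609). SMC-like cells had Mt1 at 5003 and 2761 CPM (ratio 0.552) and Mt2 at 1305 and 596 CPM (ratio 0.457, 0.422 to 0.495). Pericyte-like cells had Mt1 at 1186 and 608 CPM (ratio 0.513, 0.461 to 0.571), while Mt2 at 369 and 280 CPM (ratio 0.758) did not pass 1.5-fold.

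Tenocyte-like cells, with levels near those of FAP-like cells, had ratios of 0.921 for Mt1 and 0.758 for Mt2. Averaged over unlike clusters, EC-like cells had low and nearly equal levels. These were 487 and 517 CPM of Mt1 (ratio 1.06, 1.02 to 1.11) and 390.0 and 407 CPM of Mt2 (ratio 1.04, 0.995 to 1.09). Most of the EC-like Mt1 signal came from cluster 5, where Mt1 was 1910 CPM in DMSO and 1688 CPM in MVC (ratio 0.884). Cluster 0 had 171 and 195 CPM of Mt1, and an Mt2 ratio of 1.58 (1.30 to 1.93) from 217 and 199 UMIs. Clusters 2, 9 and 20 had Mt1 ratios of 1.15, 1.49 and 1.30. Cluster 8 had 468 and 351 CPM of Mt1 (ratio 0.751, 0.674 to 0.836). Without the 3 richest cells of each library, its Mt1 ratio was 0.626 (0.551 to 0.710) and its Mt2 ratio 0.742 (0.677 to 0.813). Taken the same way, cluster 5 had ratios of 0.859 for Mt1 and 0.798 (0.744 to 0.856) for Mt2. Mt1 was then 0.990, 1.06, 1.39 and 0.560 in clusters 0, 2, 9 and 20, and Mt2 1.61, 0.842, 1.12 and 0.899.

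**Figure D3:**
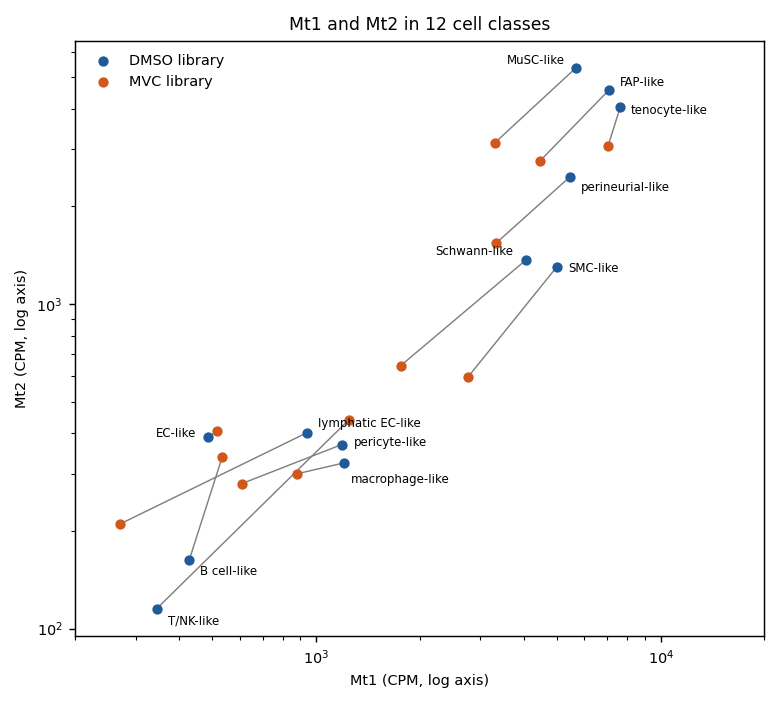
Mt1 against Mt2 in CPM (both log axes) for the 12 classes, with each class's DMSO (blue) and MVC (orange) values joined by a line. FAP-like, MuSC-like, SMC-like, Schwann-like and perineurial-like cells move down and to the left from DMSO to MVC, and B cell-like and T/NK-like cells move up. The upward moves rest on few cells, and without called doublets both B cell-like ratios were below 1.

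The FAP-like clusters differed in size of the metallothionein difference. In cluster 1 Mt1 was 6219 CPM in DMSO and 3308 CPM in MVC (ratio 0.532, 0.523 to 0.541). In cluster 3 it was 9194 and 6810 CPM (ratio 0.741), in cluster 10 7871 and 6293 CPM (ratio 0.80) and in cluster 16 1097 and 917 CPM (ratio 0.836). Cluster 1 was 442 of 1172 FAP-like cells in DMSO and 682 of 1423 in MVC, and holding the cluster shares equal in both libraries moved the Mt1 ratio of the class from 0.631 to 0.673, which is not past 1.5-fold. The Mt2 ratio was 0.662 or below under every alternative tried. At 2000 UMIs per cell, 83.7% of FAP-like cells in DMSO and 73.2% in MVC had an Mt1 UMI, against 8.87% and 11.96% of B cell-like cells. Before thinning these shares were 93.4% and 87.6% among FAP-like cells, with median depths of 10430 and 9268 UMIs.

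The number of Mt1 UMIs per Mt2 UMI differed between classes. It was 1.06 in DMSO and 1.05 in MVC for MuSC-like cells, 1.55 and 1.62 for FAP-like cells and 2.21 and 2.16 for perineurial-like cells, close in both libraries. It was further apart in tenocyte-like (1.89 and 2.29), pericyte-like (3.21 and 2.17) and SMC-like cells (3.83 and 4.63). Over the 12 classes it ranged from 1.06 to 3.83 in DMSO. Levels were not corrected for free RNA, whose part was not tested. Within FAP-like cells of the DMSO library the genes were seen together, since 86.0% of the cells with an Mt1 UMI also had an Mt2 UMI, and 30.98% of those without did. The MVC values were 81.9% and 24.0%.

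In the DMSO library 16.0% (13.7 to 18.6) of FAP-like cells with an Mt2 UMI had an Fkbp5 UMI, and 26.6% (21.4 to 32.5) of those without. In MVC the shares were 15.2% and 79 of 439 cells, with overlapping intervals. Of FAP-like cells in DMSO, 40.4% (33.7 to 47.4) of those with an Fkbp5 UMI had a Zbtb16 UMI and 30.8% (27.9 to 33.9) of those without, and the intervals overlapped. The shares were 25.6% and 23.4% for FAP-like cells in MVC, 17.1% and 17.7% for EC-like cells in DMSO and 5.73% and 9.33% for EC-like cells in MVC. Shares per cell in sparse counts also move with cluster membership, whose part was not tested.

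Lymphoid cells went the other way for the metallothioneins, on few cells. In B cell-like cells Mt2 was 162 CPM in DMSO and 338 CPM in MVC (ratio 2.08, 1.71 to 2.53), but the 3 richest cells held 57.0% and 59.0% of the UMIs. Without called doublets the Mt2 ratio was 0.511, and the Mt1 ratio was below 1 as well. In T/NK-like cells Mt1 was 345 and 1243 CPM (ratio 3.60, 3.21 to 4.03), with 91.2% of the MVC UMIs in 3 of the 61 cells. Smaller classes lay on the side of the stromal cells. Schwann-like cells had Mt1 ratios of 0.433 (0.404 to 0.464), perineurial-like cells 0.611 and lymphatic EC-like cells 0.286, the last with 55.3% and 56.4% of the UMIs in 3 cells. Sgk1 in perineurial-like cells was 134 and 55.5 CPM (ratio 0.413), with 55.5% of the DMSO UMIs in 3 cells.

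The other genes of the pathway were described by lists drawn with earlier results of these data known. All list counts are to be read beside the shares of all genes in the same class, given above for the members. Of 34 further glucocorticoid targets, 28 were tested in FAP-like cells. Of these, 4 were lower by at least 1.5-fold and 2 higher (2.26% and 9.28% of all genes). Their median log2 ratio was -0.22 against 0.13 for all genes. The lowest were Angptl4, an inhibitor of lipoprotein lipase (59.98 and 28.2 CPM, ratio 0.471), the iron carrier binding protein Lcn2 (10.0 and 5.28 CPM, ratio 0.527) and the mTOR inhibitor Ddit4 (29.6 and 15.8 CPM, ratio 0.533). Lcn2 was also a leading gene of the neutrophil-like cells, and FAP-like cells held 128 of its 2781 DMSO and 72 of its 1874 MVC UMIs. The part of free RNA in its FAP-like level was not tested. Cdkn1c, a cell cycle inhibitor also induced by glucocorticoids, was higher (86.9 and 140 CPM, ratio 1.61, 1.49 to 1.74), as was the phagocytic receptor Mertk (ratio 1.54). In EC-like cells 1 of 27 tested was lower and 4 were higher (2.94% and 6.68% of all genes). The lower one was Angptl4 again (79.8 and 33.3 CPM, ratio 0.417, 0.361 to 0.480). The higher ones were led by Cdkn1c (71.1 and 162 CPM, ratio 2.28), Fam107a (1.67) and Fbxo32 (1.67). The list median was 0.06 in EC-like cells and -0.02 in MuSC-like cells. Among the latter 2 of 17 were lower, Arrdc3 (ratio 0.600) and Angptl4 (0.646), and none higher (7.50% and 6.96% of all genes).

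Pericyte-like cells had 10 of 20 tested targets lower and none higher (6.29% and 6.97% of all genes), with a median of -0.45. They also had 12 of 22 dissociation-induced genes lower and none higher, with a median of -0.60, and the lists share Dusp1, Zfp36 and Nfkbia. In MuSC-like cells the dissociation list lay the other way, with 1 of 22 lower and 10 higher and a median of 0.57, while Pdk4, Mt1 and Mt2 were lower. In FAP-like cells 3 of these 22 genes were lower and 1 higher (median -0.05), and in EC-like and tenocyte-like cells none was lower, with medians of 0.07 and 0.19. The part of dissociation in the members' ratios was not tested.

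**Figure D4:**
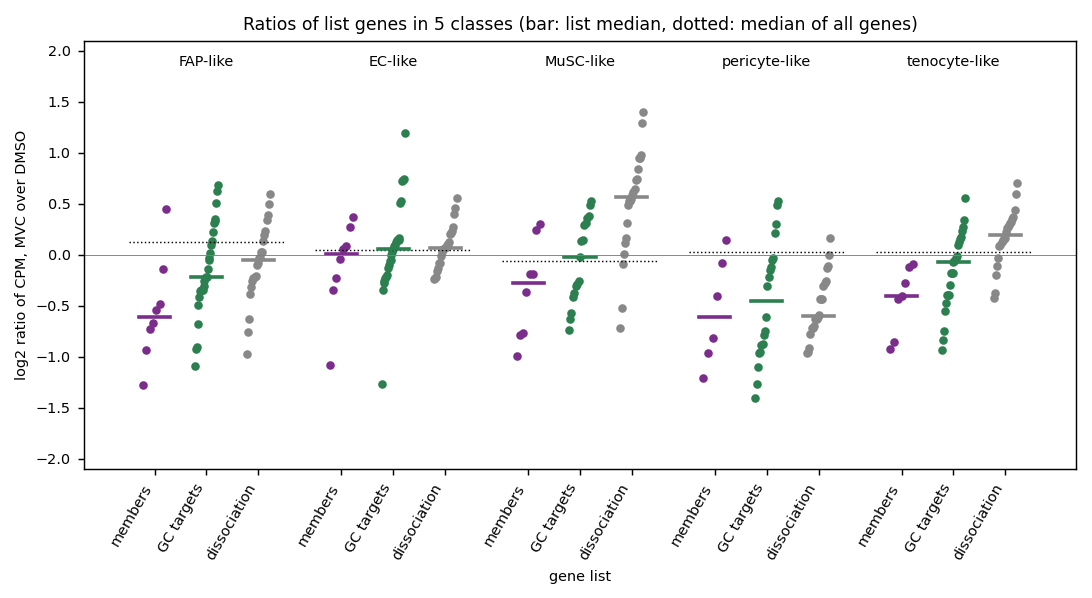
Log2 ratio of CPM, MVC over DMSO, for each tested gene of 3 lists (members in purple, other glucocorticoid targets in green, dissociation-induced genes in grey) in 5 classes, with a bar at each list's median and a dotted line at the median of all genes. The members' medians are -0.60 in FAP-like and 0.01 in EC-like cells, and the dissociation medians are -0.60 in pericyte-like and 0.57 in MuSC-like cells.

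Chaperones and steroid-handling genes set how much active hormone and receptor a cell has. None of 12 tested in FAP-like cells passed 1.5-fold (median 0.19), with Hsp90aa1 at 3912 and 4938 CPM (ratio 1.26) and Hsd11b1, which regenerates active hormone, at 210 and 184 CPM (ratio 0.880, 0.833 to 0.929). In MuSC-like cells Hsd11b1 was 61.8 and 105 CPM (ratio 1.70, 1.29 to 2.28), the only one of 11 past 1.5-fold. In EC-like cells only the mineralocorticoid receptor Nr3c2, which also binds glucocorticoids, passed it (104 and 222 CPM, ratio 2.13, 1.97 to 2.30), and its FAP-like ratio was 1.49. Nr3c2 was also past 1.5-fold higher in SMC-like (1.74), pericyte-like (1.74) and B cell-like cells (1.90) and over all kept cells (1.57). Others past it were Abcb1a in SMC-like cells (2.44) and Hspa8 in B cell-like cells (1.82), both higher, and Ptges3 in pericyte-like cells (0.656).

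Of the metal-handling genes other than the metallothioneins, none of 11 tested in FAP-like cells and none of 10 in EC-like cells passed 1.5-fold. Mtf1, the metal-sensing factor that drives Mt1 and Mt2, was 18.9 CPM in DMSO and 20.8 CPM in MVC in FAP-like cells (ratio 1.10, 0.927 to 1.32). In SMC-like cells, where Mt1 and Mt2 were lower, Mtf1 was 45.8 and 24.3 CPM (ratio 0.532, 0.345 to 0.803), from 81 and 34 UMIs. There 2 of 9 tested genes were lower, with Slc39a6 the other (0.664), and 2 higher, Slc39a10 (2.08) and Slc30a5 (1.55). The zinc importer Slc39a14 was 132 and 97.8 CPM in FAP-like cells (ratio 0.743, 0.691 to 0.799) and 595 and 413 CPM in MuSC-like cells (ratio 0.695), and the zinc exporter Slc30a5 was lower in MuSC-like cells (ratio 0.581, 0.441 to 0.766), 1 of 4 tested there.

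Of the fasting and fatty acid genes, 3 of 11 were lower in FAP-like cells and 1 higher (2.26% and 9.28% of all genes). Among the lower ones were Angptl4, shared with the targets above, and Txnip, which limits glucose uptake (642 and 363 CPM, ratio 0.566, 0.546 to 0.586), and Pdk3 was higher (1.73). In EC-like cells 2 of 9 were lower and none higher (2.94% and 6.68% of all genes). The lower ones were Angptl4 and Cpt1a (0.665), and Plin2 lay just short (0.668). Angptl4 lay the other way in SMC-like cells (ratio 1.58, 1.14 to 2.21), from 68 and 85 UMIs. Txnip in MuSC-like cells was 126 and 184 CPM (ratio 1.46). The clock genes, of which Per1 is also a receptor target, differed in FAP-like cells. There 7 of 14 were higher and none lower (9.28% and 2.26% of all genes), Dbp by a ratio of 5.42 (4.19 to 7.11). In EC-like cells 8 of 13 were higher and none lower (6.68% and 2.94%). In MuSC-like cells 2 of 7 were lower and 2 higher (7.50% and 6.96%), and in tenocyte-like cells 1 of 13 lower and 2 higher (4.06% and 6.74%). In pericyte-like cells 1 of 9 was lower and 2 higher (6.29% and 6.97%), and in SMC-like cells none of 6 passed 1.5-fold (4.29% and 9.19%). Clock genes under 100 UMIs were left out of these counts. Among them in MuSC-like cells were Dbp (2 DMSO and 38 MVC UMIs, ratio interval 2.96 to 98.1) and Tef (15 and 68, 1.55 to 5.15), both higher. In SMC-like cells Nr1d1 was higher (30 and 56 UMIs, 1.49 to 3.82) and Bhlhe41 lower (32 and 11, 0.198 to 0.887). Clock phase and glucocorticoid level both follow the time of day, the time of collection was not given in the sources used here, and its part in the members' ratios was not tested.

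The genes most like each member across the 12 classes were found among 10382 genes by Pearson's r of log2(CPM + 10). For Mt2 they were Mrpl48 (r = 0.963), B230216N24Rik (0.939) and Pcsk5 (0.937), and for Mt1 Ncs1 (0.944), Axl (0.942) and Plekhf1 (0.941). For Nr3c1 they were Cep250 (0.962), Mdp1 (0.949) and Madd (0.942), and for Pdk4 Epb41l5 (0.922), Zfyve9 (0.918) and Tcaf1 (0.917). Tsc22d3 was most like Mknk1 (0.915), A330040F15Rik (0.904) and Cyba (0.903), and Sgk1 like Synpo (0.907), Clu (0.906) and Fat4 (0.894). Fkbp5 gave Cast (0.878), Flrt2 (0.874) and Tspan5 (0.872), and Zbtb16 gave Tmem65 (0.892), Dnajb4 (0.864) and Bicd2 (0.864). None of these 24 genes was a member, and with 12 points drawn from 10382 genes such values are a ranking only.

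The Spearman rho between the DMSO and MVC orders of the 12 classes was 0.594 for Zbtb16, 0.755 for Tsc22d3, 0.760 for Pdk4 and 0.790 for Mt2. It was 0.839 for Fkbp5, 0.853 for Nr3c1 and 0.860 for Mt1. In DMSO, levels spanned 4.07-fold between the highest and lowest class for Fkbp5, 22.1-fold for Mt1 and 79.3-fold for Zbtb16.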

How the data were processed

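The members and lists were chosen with earlier results of these data known. The deposited matrices hold raw counts of UMIs per gene and barcode, which the authors made with Cell Ranger 7.0.0 (build mm10 per the submitters' processing notes, which also name Seurat 5.0.1). The annotation and the counting of introns were not given in the sources used here. The filter followed the study's methods and required 500 genes or more and mitochondrial UMIs of no more than 10%, which removed 6.45% of DMSO and 9.81% of MVC barcodes. Without the listed genes, 2000 variable genes, 30 principal components and 20 neighbours were used for Leiden clustering (leidenalg 0.10.2, resolution 1), without the study's integration, so class names were rebuilt from markers. Clusters of low depth stayed unnamed when no marker of their best class was among their leading genes (89 DMSO and 356 MVC cells). EC-like cluster 20 (119 DMSO and 59 MVC cells, median 1323 and 1257 UMIs) was also shallow but had EC markers there, so it was kept in the EC-like class. Called doublets (4.34% and 4.36%) were kept. No correction for free RNA was made.

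UMIs were summed per class and library and scaled to 1000000. Levels carry exact Poisson, shares exact Clopper-Pearson and ratios exact conditional intervals (scipy 1.17.1). A gene was counted past 1.5-fold only with at least 100 UMIs over both libraries in a class. With 1 library per group no test was possible. Shares used cells thinned to 2000 UMIs, which left out 447 DMSO and 981 MVC cells. The code was tested on simulated data. List genes named are the 3 lowest and 3 highest ratios per list in FAP-like, EC-like and MuSC-like cells, or a selection of them, and 1 listed gene is counted but not reported here by name. Subcluster, pericyte-like and codetection values, SMC-like values of list genes and list genes under 100 UMIs were chosen after they were seen. There were 9 alternatives planned and 3 added after seeing the data, and cluster ratios without the 3 richest cells were also added then.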

Additional observations from a re-analysis of the deposited data

Results flagged for a closer look

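Members with an interval below 1 and a ratio past 1.5-fold in one class and an interval above 1 in another are given here, and the difference between classes was not tested. Pdk4 had a ratio of MVC to DMSO of 0.412 in FAP-like cells and of 1.30 in EC-like cells. Mt1 had 0.513 in pericyte-like and 1.25 in B cell-like cells. Mt2 had 0.457 in SMC-like and 2.08 in B cell-like cells, and without called doublets the B cell-like ratios were 0.276 for Mt1 and 0.511 for Mt2.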

How the results depend on the processing

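No paired analysis was possible because each group held 1 library. Of 19 member ratios past 1.5-fold (17 within classes and 2 over all kept cells), 16 stayed past it under every alternative tried. The exceptions were Mt1 in FAP-like cells (cluster shares held equal, 0.673), Tsc22d3 in pericyte-like cells (mean of each cell's CPM, 0.726) and Mt2 in B cell-like cells, which reversed to a log2 ratio of -0.97 without called doublets and was 1.35 in cells with no myofibre marker UMI. Of 678 member ratios under an alternative, 577 lay inside the main counting interval, 100 outside, and 1 was the reversed Mt2 ratio.

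Counts of members past 1.5-fold moved by more than 1.5 times, or from 0, in 3 classes. With no minimum on UMIs, Pdk4 also added 1 lower member in SMC-like (3), tenocyte-like (3) and pericyte-like cells (4). In SMC-like cells 1 member was higher in place of 0 with thinning, without called doublets and in cells with no myofibre marker UMI. In macrophage-like cells 2 were lower in place of 1 with no minimum on UMIs and in cells with no myofibre marker UMI. In B cell-like cells, 2 were lower and 0 higher without called doublets, 2 were higher with a minimum of 20 UMIs or none, 1 was lower and 2 were higher without the 3 richest cells, and 1 was lower and 0 higher in cells with no myofibre marker UMI. Of the other glucocorticoid targets, 2 in place of 4 were lower in FAP-like cells after thinning, and 2 in place of 1 in EC-like cells with no minimum. In MuSC-like cells 0 in place of 2 were lower after thinning or with the mean of each cell's CPM, 1 after scaling by the median ratio, without the 3 richest cells or in cells with no myofibre marker UMI, and 7 with no minimum. The causes were not tested. Depth limits Pdk4 most, with under 100 UMIs in 5 of the 8 classes.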
